A study of Saccharomyces cerevisiae with 6 samples.

Results

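The genes described here are 36 genes of amino acid biosynthesis in Saccharomyces cerevisiae (budding yeast). They comprise 5 genes of arginine synthesis, 5 of histidine, 9 of the branched-chain amino acids, 7 of lysine and 9 of the aromatic amino acids, together with the regulator GCN4. They were taken by name from a list of these pathways, as the probe sets whose annotated gene symbol equals a listed gene. All 36 were found, with 39 probe sets, among the 5656 genes that have a probe set of their own on the array. HIS3 and LEU2 have more than 1 such probe set, and the brightest stands for the gene below. One further probe set is annotated to LYS20 and LYS21 together and was used for neither.

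The study asked how yeast responds to azinomycin B, a bacterial product that forms cross-links in DNA. Per the labels' protocols, YPD (a rich medium with glucose) was used at 30 °C for growth to an optical density of 1.0 and cells were then kept for 6 h with 100 µg/ml of the compound in a little ethanol, with 10 µg/ml, or without it. There are 6 arrays of 1 colour. The label A100 names a control and a 100 µg/ml array, B100 names another such pair, and 10 names a control and a 10 µg/ml array. The 4 arrays labelled A100 or B100 are called the 100 series below, and the 2 labelled 10 are called the 10 series. The labels give no genotype for the yeast, do not mention ethanol in the controls, and do not state whether the arrays of a group are separate cultures. The p-values therefore cover the spread among these 6 arrays and no other source. Signals were compared as log2(signal + 16), which understates differences of low signals, and every log2 difference below is on that scale.

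Yeast can make all the amino acids of its proteins. Gcn4 is the activator that raises many of these genes together when an amino acid runs short. Its own amount is known to be set largely at translation, through short reading frames ahead of the GCN4 coding sequence, so that its transcript need not change when its activity does. Single pathways also have regulators of their own, such as Leu3 for leucine, Lys14 for lysine and the Arg80 and Arg81 proteins for arginine. In rich medium, amino acids are taken up by permeases and many of the biosynthetic genes run at a lower rate.

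The median signal over all probe sets was between 112.0 and 143.9 on the 6 arrays. RNA integrity was read from the actin gene ACT1, as its 3' signal over its 5' signal, which was between 1.44 and 2.09. Its lowest and highest values were both at 100 µg/ml, and the 10 series lay between them at 1.78 and 1.85. Lists of growth and stress genes differed between the series. All 31 tested genes of a ribosome biogenesis list were lower in the 100 series, 15 of them past the test, with a median log2 difference of -1.53. Of all 6957 probe sets tested 3564 were lower there, and 5.19% passed as lower. Of 24 heat shock genes 22 were higher there, 15 past the test, with a median of 1.14. In that direction 5.16% of all probe sets tested passed. The part of these 2 lists in the results on amino acid genes was not tested.

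Amino acid biosynthesis genes were mostly lower in the 100 series than in the 10 series. Of the 35 members tested 29 had a negative log2 difference, against 3564 of all 6957 probe sets tested. The members' median was -0.57, against -0.02 over all probe sets tested. In a limma fit with series and treatment as terms, 9 members passed the threshold, all lower in the 100 series: CPA1, ARG1, HIS7, ILV5, ILV3, LEU9, LEU1, LYS12 and ARO4 (adjusted p between 0.00799 and 0.0487). They were 25.7% of the members tested, where 5.19% of all probe sets tested passed in that direction. No member passed in the other direction, in which 5.16% of all probe sets did. All 4 arrays of the 100 series lay below both arrays of the 10 series for 19 members (54.3%), against 19.6% of all probe sets tested, and above both for 3 members (8.57%), against 18.9%. The 29 negative members stayed 29 after quantile normalization and after scaling each array to a common median. The count of called members depended on single arrays: it was 0 without the A100 control, without the control of the 10 series or without the 10 µg/ml array, 2 without the B100 control, 4 without the B100 treated array and 16 without the A100 treated array. LYS4 passed among those 16 as higher in the 100 series, and the other 15 as lower. With 1 mean for each of the 4 combinations of series and treatment 6 members passed, without LEU9, LYS12 and ARO4, against 5.59% of all probe sets tested. With 1 of the 2 arrays of the 10 series left out, hardly any of all probe sets tested passed, so that loss was not particular to the members. The 10 series is then 1 array, and the members' median was -0.68 without its control and -0.55 without its treated array. Over all probe sets tested, 10.3% passed in either direction with all 6 arrays. That share was 0.287% without the A100 control and 0.747% without the B100 control. It was 3.32% without the B100 treated array and 29.2% without the A100 treated array. Since the series also differ in the dose given to their treated arrays, the controls were compared by themselves (2 arrays against 1, no test). The median of the members there was -0.55, against -0.02 over all probe sets tested. Values of single members ran from -3.11 to 1.14, and 7 of the 35 were positive.

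**Figure D1:**
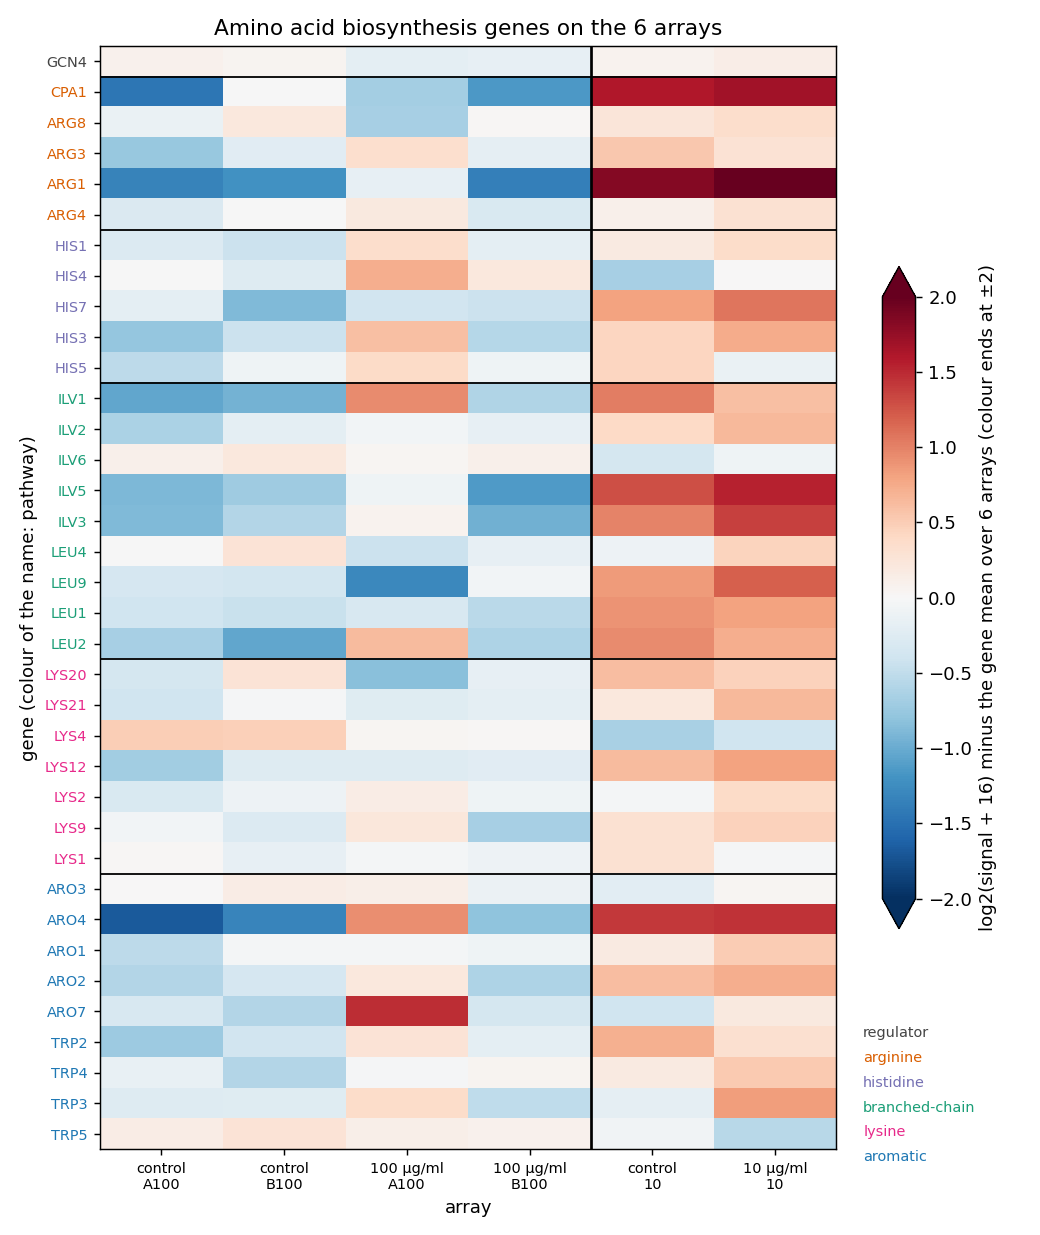
Level of each of the 36 genes on the 6 arrays, as log2(signal + 16) minus the gene's mean over the arrays (colour), with genes in rows by pathway and arrays in columns. The thick vertical line parts the 100 series on the left from the 10 series on the right, where ARG1, CPA1, ILV5, ILV3 and ARO4 are highest, while GCN4 is nearly even.

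GCN4 itself was nearly even over the arrays. Control arrays A100 and B100 gave a signal of 5771 and 5684, with 4758 and 4883 at 100 µg/ml, 5723 in the control of the 10 series and 5966 at 10 µg/ml. Both arrays at 100 µg/ml lay below the other 4, and those 4 were within a narrow range. The series difference was -0.15 (SE 0.176, adjusted p = 0.595), and in the controls alone it was 0.0012. The transcript of the regulator thus did not pass the test.

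Arginine synthesis held the member with the greatest difference between the series. ARG1, argininosuccinate synthetase, gave signals of 77.8 and 86.2 in the controls and 195.0 and 75.3 on the 100 µg/ml arrays in the 100 series, against 826 and 1115 in the control and treated arrays of the 10 series. The groups did not overlap, and the highest array of the 100 series was the treated A100 array. ARG1 was 8.37-fold lower in the 100 series (log2 difference -3.07, SE 0.339, adjusted p = 0.00799). CPA1, the small subunit of the carbamoyl phosphate synthetase of this pathway, had 602.5 and 1667 in the controls and 1038 and 748 on the 100 µg/ml arrays, against 5102 and 5390 in the 10 series. Its values in the 100 series were more uneven than those of ARG1, but the highest still lay under both arrays of the 10 series. CPA1 was 5.50-fold lower (-2.46, SE 0.395, adjusted p = 0.0186). ARG4, argininosuccinate lyase, which acts directly after ARG1, was at -0.31 (SE 0.225), and ARG8, acetylornithine aminotransferase, at -0.44 (SE 0.278). Neither passed. ARG3, ornithine carbamoyltransferase, fell under the filter on low signals, with 7.7 and 18.3 in the controls, 34.6 and 19.1 on the 100 µg/ml arrays, and 41.8 and 32.6 in the 10 series. It was left out of the tests.

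**Figure D2:**
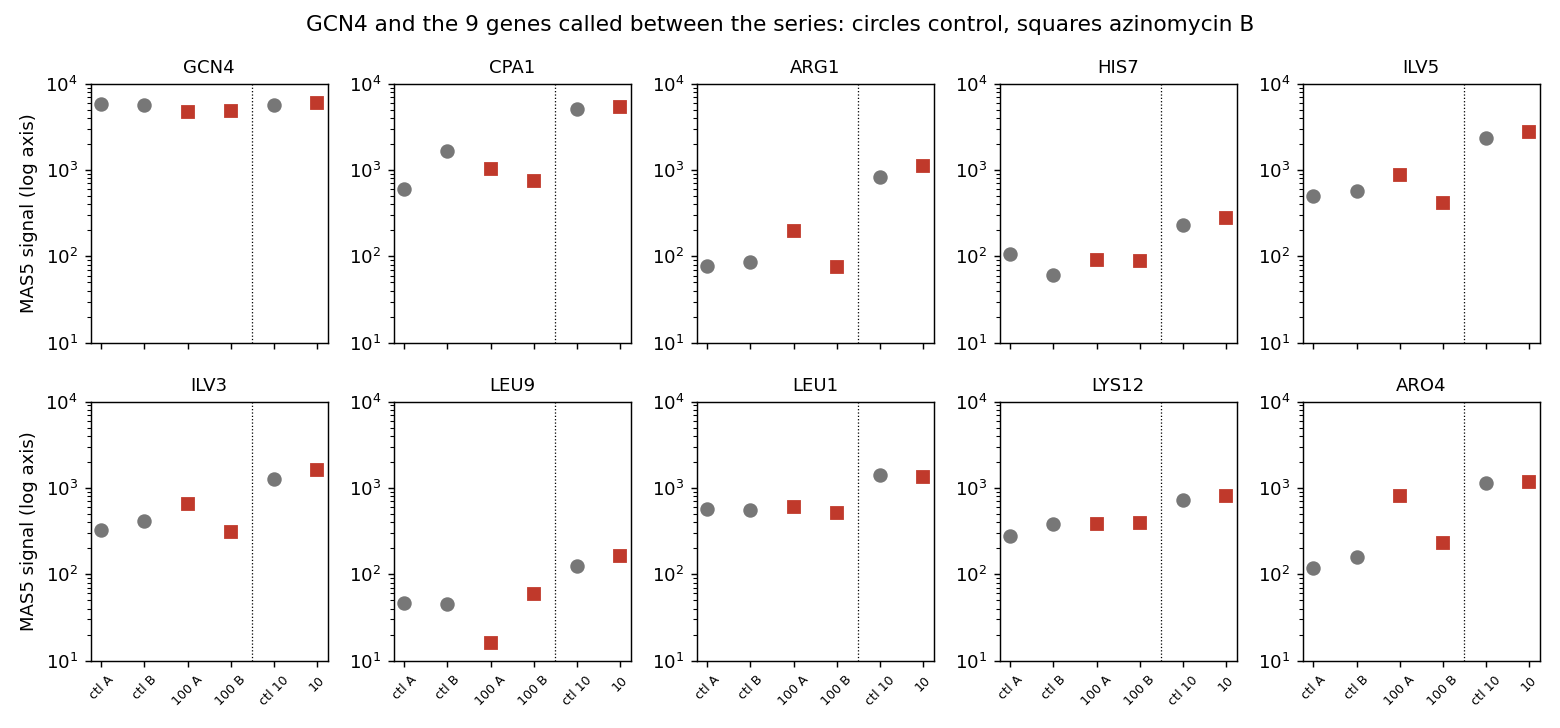
Signal on a log axis for GCN4 and the 9 genes that passed between the series, with circles for control and squares for azinomycin B arrays and a dotted line between the 100 series and the 10 series. For each of the 9 called genes both points on the right lie above all 4 on the left, and for GCN4 they do not.

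Among the branched-chain genes, 4 of 9 passed as lower in the 100 series, as 5.19% of all probe sets tested did. ILV5, acetohydroxyacid reductoisomerase, had 499 and 566.5 in the controls and 883 and 420.0 on the 100 µg/ml arrays, against 2325 and 2755 in the 10 series. It was 4.35-fold lower in the 100 series (-2.12, SE 0.305, adjusted p = 0.0143). ILV3, dihydroxyacid dehydratase, the next enzyme, had 328 and 408.5 in the controls and 655 and 312 on the 100 µg/ml arrays, against 1251 and 1628 in the 10 series. Its difference was 3.41-fold (-1.77, SE 0.310, adjusted p = 0.0217). For both genes the treated A100 array was the highest and the treated B100 array the lowest of the 100 series. LEU1, isopropylmalate isomerase, had the smallest SE of the 9 called members, with 564 and 548 in the controls, 596 and 513 on the 100 µg/ml arrays, and 1407 and 1324 in the 10 series. It was 2.42-fold lower (-1.28, SE 0.193, adjusted p = 0.0169), and no array of the 100 series came near those of the 10 series.

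LEU9 and LEU4 encode 2 forms of isopropylmalate synthase, the first enzyme that belongs to leucine synthesis alone. LEU9 had 46.0 and 44.8 in the controls and 16 and 59.9 on the 100 µg/ml arrays, against 125.5 and 164.4 in the 10 series (-1.54, SE 0.371, adjusted p = 0.0460). LEU4 had 4347 and 5315 in the controls and 3232 and 3901 on the 100 µg/ml arrays, against 4070 and 5950 in the 10 series (-0.25, SE 0.265, adjusted p = 0.559). The LEU4 arrays of the series overlapped, and the difference between the genes was not tested. The low LEU9 value of the treated A100 array (-0.95 against the A100 control) stands among probe sets numbered 7600 to 8500. This range was chosen after the data were seen. In it 4.55% were at least 4-fold lower than in the A100 control, against 0.478% elsewhere. Without the treated A100 array LEU9 was at -1.22 and was called (adjusted p = 0.00416 in limma). In that fit 29.2% of all probe sets tested passed, against 10.3% with all arrays. CPA1, HIS3 and ARO7 also lie in this range of numbers. Neither LEU9 nor any of these 3 was at least 4-fold lower on the treated A100 array.

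The other branched-chain genes did not pass. LEU2, isopropylmalate dehydrogenase, was at -1.25 (SE 0.404, adjusted p = 0.0899), and ILV2, the catalytic subunit of acetolactate synthase, was at -0.78 (SE 0.212, adjusted p = 0.0587). Both had all 4 arrays of the 100 series below the 10 series. A second probe set of LEU2 was at -1.50 (SE 0.458). The remaining one was under the filter, with signals of 3.3 to 9.9. ILV1, threonine deaminase, which starts isoleucine synthesis, had 103.9 and 111.6 in the controls and 456 and 146.6 on the 100 µg/ml arrays, against 483 and 357 in the 10 series (-1.22, SE 0.500, adjusted p = 0.152). Its treated A100 array reached the range of the 10 series. ILV6, the regulatory subunit of acetolactate synthase, lay the other way from ILV2, with 2454 and 2639 in the controls, 2358 and 2445 on the 100 µg/ml arrays, and 1782 and 2148 in the 10 series (0.33, SE 0.189, adjusted p = 0.274).

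In the lysine pathway 1 of 7 genes passed, as lower in the 100 series, against 5.19% of all probe sets tested. LYS12, homoisocitrate dehydrogenase, had 278 and 381 in the controls and 380.4 and 388.5 on the 100 µg/ml arrays, against 723 and 810.2 in the 10 series, a 2.11-fold difference (-1.08, SE 0.214, adjusted p = 0.0284). With 1 mean for each of the 4 combinations of series and treatment the call was lost (adjusted p = 0.0535). LYS4, homoaconitase, which acts just before LYS12, had 462 and 457 in the controls, 332 and 329 on the 100 µg/ml arrays, and 199.9 and 242 in the 10 series (0.78, SE 0.233, adjusted p = 0.0750). It was thus higher on all 4 arrays of the 100 series, without passing. LYS20 and LYS21 encode 2 forms of homocitrate synthase, the first step. LYS20 had 2151 and 3294 in the controls, 1528 and 2427 on the 100 µg/ml arrays, and 4217 and 3770 in the 10 series (-0.81, SE 0.276). LYS21 had 628 and 817 in the controls, 701 and 729 on the 100 µg/ml arrays, and 963 and 1318 in the 10 series (-0.64, SE 0.221). Their series did not overlap, and neither passed (adjusted p = 0.102 and 0.104). LYS1 and LYS9, the saccharopine dehydrogenases, and LYS2, aminoadipate reductase, were between -0.57 and -0.22.

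In the aromatic pathway the 2 forms of DAHP synthase, which opens it, had different values. ARO4, the form inhibited by tyrosine, had 118.3 and 157.5 in the controls and 808 and 232 on the 100 µg/ml arrays, against 1137 and 1164 in the 10 series, a 4.44-fold difference (-2.15, SE 0.533, adjusted p = 0.0487). The treated A100 array stood well above the other 3 of its series, the controls alone differed by -2.92, and without the control of the 10 series the value was -1.39. ARO3, the form inhibited by phenylalanine, had 1969 and 2183 in the controls, 2125 and 1801 on the 100 µg/ml arrays, and 1695 and 2019 in the 10 series (0.12, SE 0.198, adjusted p = 0.716), with overlapping series. The difference between the 2 genes was not tested. The ARO4 call was close to the threshold and was lost after quantile normalization (adjusted p = 0.0554), as was that of LEU9 (adjusted p = 0.0572). ARO2, chorismate synthase, was at -1.0 (SE 0.273, adjusted p = 0.0603), and ARO1, the enzyme of several central steps, at -0.52. TRP2 and TRP4, which carry out the first steps from chorismate to tryptophan, were at -0.77 and -0.53, and both had series that did not overlap. TRP5, tryptophan synthase, which completes that branch, had 1926 and 2114 in the controls, 1885 and 1842 on the 100 µg/ml arrays, and 1657 and 1183 in the 10 series (0.46, SE 0.194, adjusted p = 0.157).

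In the histidine pathway 1 of 5 genes passed, as lower in the 100 series, against 5.19% of all probe sets tested. HIS7, imidazole glycerol phosphate synthase, had 107.8 and 60.4 in the controls and 91.8 and 88.9 on the 100 µg/ml arrays, against 231.5 and 281.0 in the 10 series. This was a 2.67-fold difference (-1.42, SE 0.254, adjusted p = 0.0226), with no overlap. HIS4, an enzyme of several steps of the pathway, had 221 and 182 in the controls, 375 and 260 on the 100 µg/ml arrays, and 133.6 and 222 in the 10 series (0.50, SE 0.233, adjusted p = 0.198), so its series overlapped. HIS3, imidazoleglycerol-phosphate dehydratase, was at -0.87 (SE 0.342) and -0.48 (SE 0.390) on its 2 probe sets. HIS1, which opens the pathway, and HIS5, an aminotransferase, were at -0.41 and -0.23, and none of the 3 passed.

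**Figure D3:**
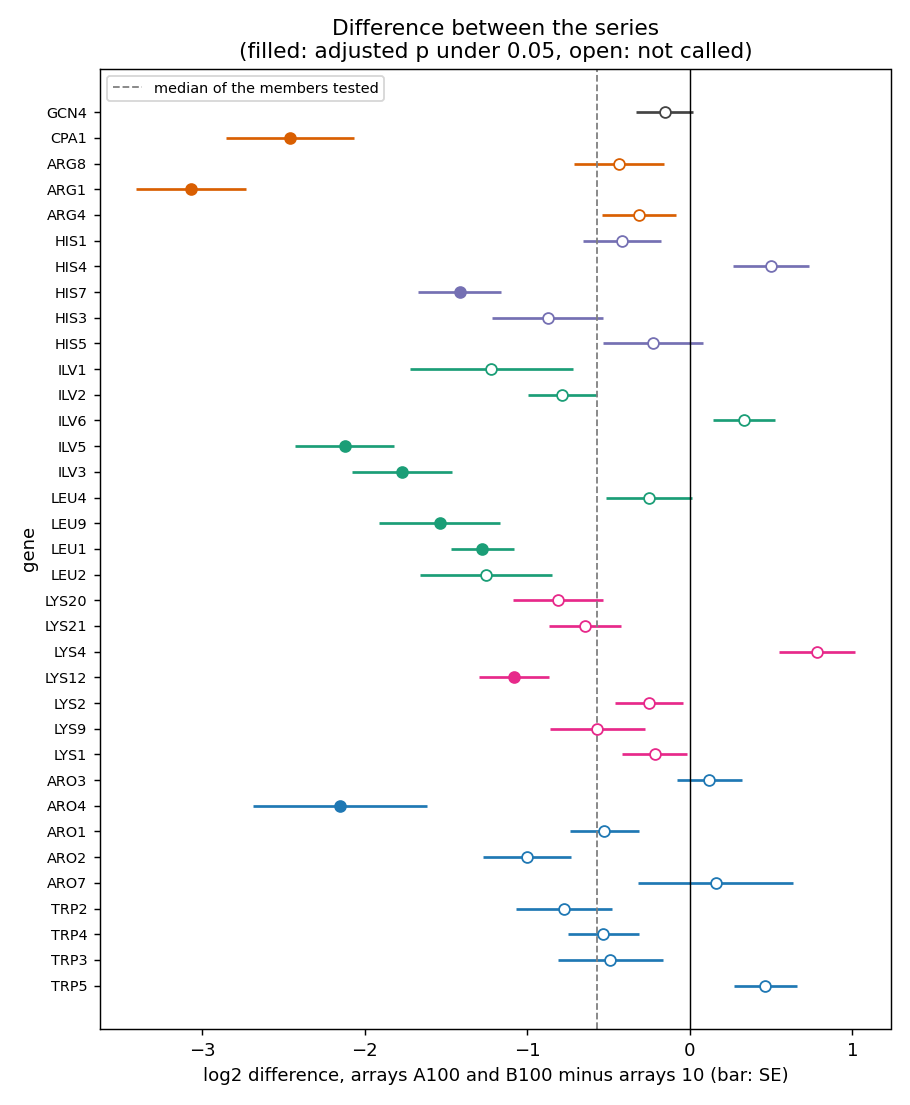
Log2 difference of each of the 35 tested genes between the series (arrays A100 and B100 minus arrays 10), with bars for the SE, filled points for adjusted p under 0.05 and a dashed line at the members' median of -0.57. All 9 filled points lie left of the median, and 6 open points lie right of 0.

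Of 15 other listed genes of the same 5 pathways 12 were tested, and 2 passed, both lower in the 100 series. In that direction 5.19% of all probe sets tested passed. The median of the 12 genes was -0.56, with 11 negative, or 9 at a common median. BAT1, the mitochondrial branched-chain aminotransferase, passed at -2.01 (SE 0.434, adjusted p = 0.0337), with 88.6 to 314 in the 100 series and 571 to 596 in the 10 series. ARO9, an aromatic aminotransferase, passed at -1.66 (SE 0.210, adjusted p = 0.0104), with 109.7 to 133.2 against 398 to 436. ARG2, acetylglutamate synthase, was at -1.24 (adjusted p = 0.0662). For the synthesis of other amino acids 20 of 22 tested genes were negative, with a median of -0.53 and 4 called, all lower in the 100 series. These were glutamine synthetase GLN1 (-1.42), threonine synthase THR4 (-1.17), asparagine synthetase ASN2 (-1.05) and the serine pathway aminotransferase SER1 (-0.82). PRO1, which starts proline synthesis, was at -1.50 and did not pass (adjusted p = 0.0535).

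Purine synthesis shares the activator Bas1 with part of histidine synthesis. Of 10 tested purine genes 8 were negative, with a median of -1.03. Among all probe sets tested 5.19% passed as lower and 5.16% as higher. ADE1 (-1.84), ADE6 (-1.46), MTD1 (-1.36) and ADE13 (-1.25) passed as lower in the 100 series, and ADE16, which encodes 1 of 2 forms of the enzyme of the last steps to IMP, passed as higher (1.23, SE 0.202, adjusted p = 0.0193). ADE17, the gene of the other form, was at -1.69 (SE 0.465, adjusted p = 0.0620). Of 7 tested genes of arginine, proline and glutamate breakdown 3 passed, all higher in the 100 series, as 5.16% of all probe sets tested did. The median of the 7 was 0.93. PUT1 (-0.27), GDH2 (0.03) and PUT2 (0.01) of this list were close to 0 or negative, and ARO9, which is also known to act in breakdown, passed as lower (above). Arginase CAR1 had 2644 and 2564 in the controls and 1691 and 2226 on the 100 µg/ml arrays, against 584 and 954 in the 10 series (1.57, SE 0.290, adjusted p = 0.0244). CAR2, ornithine aminotransferase, was at 1.10 (adjusted p = 0.0258), and UGA1, which acts on gamma-aminobutyrate, at 1.58 (adjusted p = 0.0249). All 3 had series that did not overlap.

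Regulators and permeases were mixed. Of 16 regulators of amino acid synthesis 12 were negative, with a median of -0.31. Of the 16, 1 passed as lower and 1 as higher in the 100 series. Of all probe sets tested 5.19% passed as lower and 5.16% as higher, so these counts are near those shares. GCD1, a subunit of the exchange factor eIF2B that acts in GCN4 translation, passed at -0.93 (SE 0.209, adjusted p = 0.0370), and GCN20, a partner of Gcn1, at 0.83 (SE 0.203, adjusted p = 0.0467). GCN1 (-1.09) and the transcription factor gene PHO2 (1.12) did not pass. The 20 amino acid permeases had a median of -0.07 and 11 negative values, counts that became 0.03 and 9 at a common median signal. Among the 20 permeases 1 passed each way, again near the 5.16% and 5.19% of all probe sets tested. The glutamine permease GNP1 passed as higher in the 100 series (1.33, SE 0.297, adjusted p = 0.0369). TAT1, which takes up aromatic and branched-chain amino acids among others, passed as lower (-1.26, SE 0.270, adjusted p = 0.0337), and MUP3 (0.95) did not pass.

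**Figure D4:**
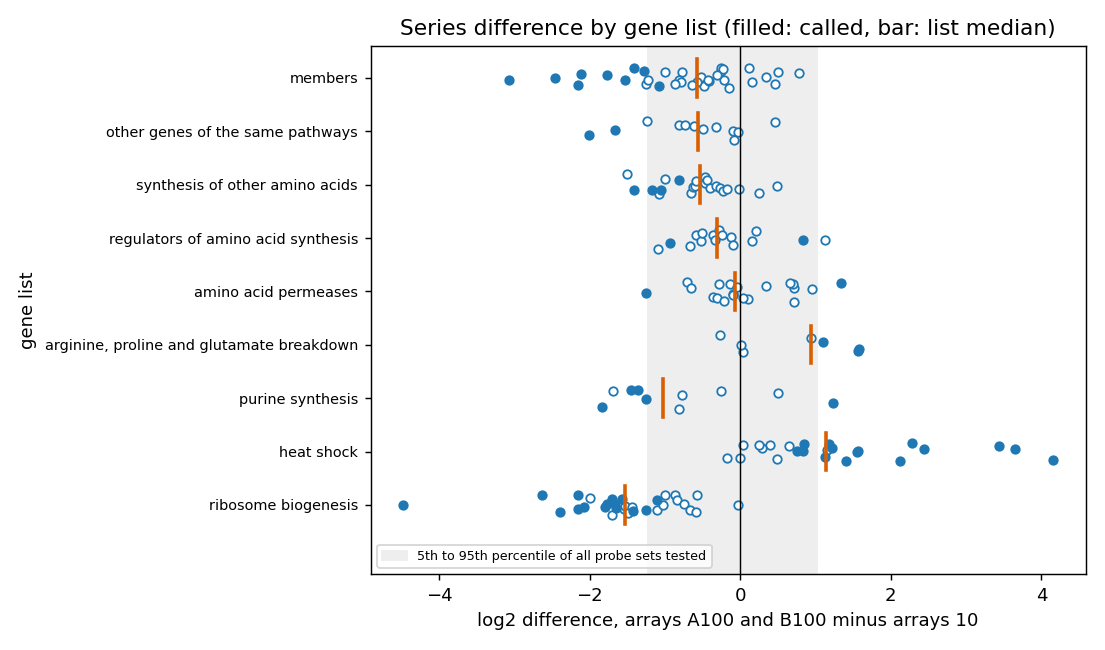
Log2 difference between the series for the tested genes of each list, with filled points for adjusted p under 0.05, a bar for each list's median and grey from the 5th to the 95th percentile of all probe sets tested. The members' median of -0.57 lies beside those of the other amino acid synthesis lists (-0.56 and -0.53), while the list of arginine, proline and glutamate breakdown lies at 0.93.

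Some biosynthetic genes serve as common auxotrophic markers of laboratory strains. Of 7 such genes LEU2, HIS3, LYS2, ADE2 and MET17 were tested, and their brightest probe sets had signals of at least 164.4 on every array. The second probe set of HIS3 had 22.7 to 120.9. The other probe sets of LEU2 had 120.2 to 743.4 and 3.3 to 9.9. URA3 had 8.0 to 28.9 and TRP1 2.4 to 12.8, both under the filter. These levels do not tell a genotype.

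Azinomycin B against control gave no call among the amino acid genes. Over the 3 pairs, with the series difference in the fit, 0 of 35 members and 0 of 6957 probe sets passed in limma (percent called 0%), and 1 member, HIS4, and 524 probe sets had an unadjusted p under 0.05. The median over the members was 0.21, against 0.06 over all probe sets tested. It was 0.05 without the treated A100 array and 0.09 without the A100 control. It was 0.03 against -0.11 when each array was scaled to a common median, so that the members stood 0.15 and 0.14 above all probe sets. In 8 members the treated array was above its control in all 3 pairs (22.9%), against 22% of all probe sets, and in 2 it was below in all 3 (5.71%), against 12.2%. At a common median these counts were 3 and 6, against 11.3% and 25.2% of all probe sets. HIS1, HIS4 and ARO7 were above, and LYS20 and TRP5 below, under both scalings.

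HIS4 was the most even of the members above. It was higher by 0.72 (A100), 0.48 (B100) and 0.67 (10), a log2 difference of 0.62 (SE 0.220, adjusted p = 0.585). ARO4 had the largest value over the pairs, 1.06 (SE 0.503, adjusted p = 0.585), from 2.62, 0.51 and 0.03, and it was at 0.41 without the treated A100 array. ARO7, chorismate mutase, which leads to phenylalanine and tyrosine, had 62.6 and 49.3 in the controls of the 100 series, 255 and 60.4 at 100 µg/ml, 57.9 in the control of the 10 series and 95.9 at 10 µg/ml (0.87, SE 0.448, adjusted p = 0.585). Its treated A100 array stood alone, and the value was 0.31 without it. On the lower side LYS20 was at -0.36 (SE 0.260, with -0.49, -0.44 and -0.16 in the pairs), TRP5 at -0.24 (-0.03, -0.20 and -0.48) and LYS4 at -0.22 (-0.46, -0.46 and 0.26). LYS20 was at -0.14 without the treated A100 array and at -0.16 without the B100 control.

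At 100 µg/ml against the controls of the same series, 0 of 35 members and 0 of 6957 probe sets passed in limma (0%), with 1 member, ARO4, and 425 probe sets at an unadjusted p under 0.05. The members' median was 0.19, against 0.05 over all probe sets tested, and 0.0054 against -0.12 at a common median. It was -0.02 without the treated A100 array, 0.10 without the A100 control and 0.35 without the treated B100 array, so its sign rested on 1 array. Both treated arrays lay above both controls for 10 members (28.6%), against 26.1% of all probe sets, and below both for 5 (14.3%), against 18.5%. The 10 were HIS1, HIS4, HIS5, ILV1, ILV2, LEU2, LYS2, ARO4, TRP2 and TRP4, and the 5 were GCN4, ILV6, LEU4, LYS4 and TRP5.

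The treated arrays at 100 µg/ml differed from each other. The members' median difference from the control of the same label was 0.48 in the A100 pair, with 25 of 35 positive, against a median of 0.03 over all probe sets tested. In the B100 pair it was -0.11, with 15 positive, against 0.06. At a common median the members' values were 0.26 and -0.27, against -0.175 and -0.0917 over all probe sets tested. In the A100 pair 6 members were at least 2-fold higher (17.1%), against 10.7% of all probe sets, and 0 at least 2-fold lower, against 6.12%. The 6 were ARO4 (2.62), ILV1 (1.98), ARO7 (1.79), HIS3 (1.37), LEU2 (1.29) and ARG1 (1.17). The second probe sets of LEU2 (1.99) and HIS3 (1.82) gave differences in the same direction. In the B100 pair, by the brightest probe sets, 0 members were at least 2-fold higher, against 2.06% of all probe sets. Only CPA1 was at least 2-fold lower (-1.14), against 0.661%. LEU2 was at 0.42 in that pair on its brightest probe set, but at 1.11 on its second, which is more than 2-fold higher. The second probe set of HIS3 was at 0.16 there. CPA1 was at 0.77 in the A100 pair, and its 2 controls in the 100 series differed by -1.44. The ribosome biogenesis list had a median of 1.21 in the A100 pair against -0.06 in the other, and its part in these values was not tested. The treated A100 array was the highest of the 4 arrays of the 100 series for 20 members (57.1%), against 39.8% of all probe sets, and the lowest for 6 (17.1%), against 34.3%. Without the treated B100 array, 6 members (17.1%) passed at 100 µg/ml, close to the 16.3% of all probe sets (1136) that did. The group is then the treated A100 array alone, taken to vary like the other groups.

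**Figure D5:**
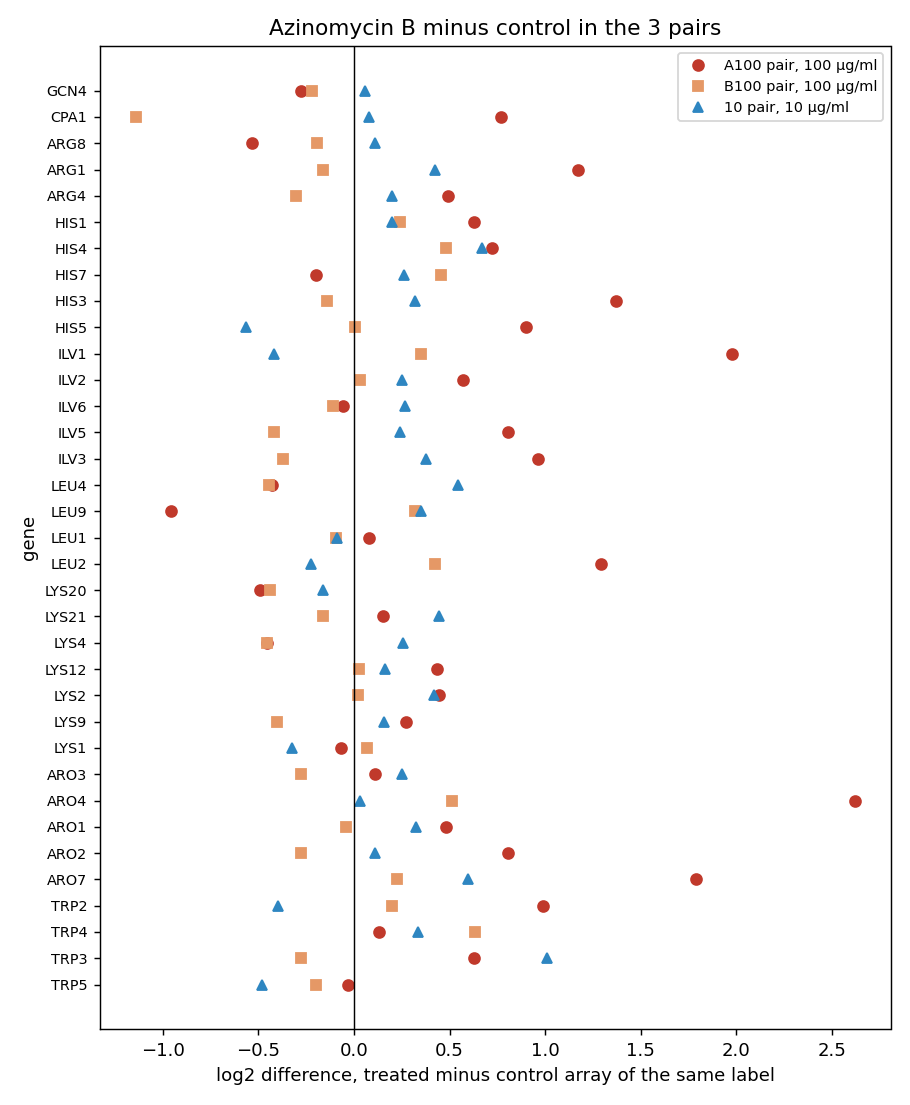
Log2 difference of the treated array minus its control for each of the 35 tested genes, with circles for the A100 pair, squares for the B100 pair and triangles for the 10 pair. The circles reach 2.62 for ARO4, while all squares lie between -1.14 and 0.64 and all triangles between -0.56 and 1.01.

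At 10 µg/ml there is 1 pair, and no test was made of it alone. The members' median was 0.24, against 0.08 over all probe sets tested, with 27 of 35 positive, and 0.09 against -0.06 at a common median. TRP3, which encodes an enzyme of tryptophan synthesis, was the 1 member at least 2-fold higher (1.01), against 2.1% of all probe sets, with signals of 101.5 and 220.5, while 0 members were at least 2-fold lower, against 2.4%. Its differences in the A100 and B100 pairs were 0.63 and -0.27. LEU4 had 0.55, and ARG1 0.43.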

How the data were processed

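The intensity values, 1 linear signal per probe set and array, came from MAS5 as run by the authors (per the submitters' processing notes). Its version and scaling target were not given in the sources used here. On every array the 2% trimmed mean lay between 499.83 and 499.86, so the signals were used as deposited. Of 9335 probe sets the 60 manufacturer's controls were left out, and of the other 9275 the 25% with the lowest mean log2(signal + 16), which left 6957. Of the 9275, 6504 carry 1 gene symbol in the platform annotation, 328 several and 2443 none, and those with several gave no gene its name. All 36 member symbols match RefSeq symbols of the same gene IDs.

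limma 3.58.1 in R 4.3.3 fitted log2(signal + 16) of all 6 arrays with a variance trend, two-sided, with Benjamini-Hochberg adjustment over 6957 probe sets and a threshold of 0.05. Terms were series and treatment (3 residual degrees of freedom), and for 100 µg/ml in its own series 1 mean for each of 4 cells (2 residual degrees of freedom). The code was tested on simulated data. The number of arrays limits the precision. Members and lists were chosen with earlier results of these data known. Signals are printed for GCN4, every called member, the 5 largest series differences each way, the 3 largest azinomycin differences each way, and the gene pairs LEU4 and LEU9, LYS20 and LYS21, and ARO3 and ARO4. TRP3 and ARG3 were added after their values were seen. Of other lists up to 3 genes with the largest series difference and those called are named. Of the ribosome biogenesis and heat shock lists only counts are given. Alternatives were other scalings, pseudocounts, filters, variance models and thresholds, the mean of a gene's probe sets, the label as a block, leaving out each array and, chosen after seeing the data, a fit without probe sets 7600 to 8500. No sequences of these genes were used here.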

Additional observations from a re-analysis of the deposited data

Results flagged for a closer look

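For 9 of the 35 members tested (25.7%) both 100 µg/ml pairs moved one way and the 10 µg/ml pair the other, which 25.5% of all probe sets tested did too. The difference between the doses, each against the controls of its own series, was -0.31 for GCN4, -0.47 for ARG8, -0.35 for ILV6, -0.98 for LEU4 and -0.72 for LYS4, which were lower than control in both 100 µg/ml pairs and higher in the other. It was 1.02 for HIS5, 1.58 for ILV1, 1.08 for LEU2 and 0.99 for TRP2, which moved in the opposite way. None of these passed limma's test of the difference (adjusted p = 0.966 for each), and the 10 µg/ml side is 1 pair.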

How the results depend on the processing

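The median series difference of the members (-0.57) stayed between -0.68 and -0.55 with each array left out. Between the series 720 probe sets passed, 479 with no filter, 389 with 1 mean for each of 4 cells, 1440 at an adjusted p under 0.10, and 0 to 2034 with 1 array left out, when 0 to 16 members passed. Over the 3 pairs 0 to 1 probe sets then passed, and at 100 µg/ml 0 to 1136, with 0 to 6 members. LEU9 and ARO4 were lost from the 9 called members after quantile normalization, with a pseudocount of 1 and with no filter, and LEU9, LYS12 and ARO4 with 1 mean for each of 4 cells, which left 6. Nothing in the labels says that they mark shared cultures, so they were not used as a block in the main fits. A100 minus B100 correlated at r = -0.0708 between control and treated arrays. With the label as a replicate block, 0 probe sets passed over the 3 pairs (561 at an unadjusted p under 0.05 in limma) and 0 at 100 µg/ml (474 unadjusted). The members' median over the pairs was 0.21 with that block and 0.05 to 0.28 with 1 array left out, and at 100 µg/ml it was then -0.02 to 0.35. Signals near 16, such as those of ARG3 and LEU9, limit what can be read from low probe sets.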
